A study of Mus musculus with 18 samples.

Results

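The actin remodeling and migration machinery was followed through neutrophil formation in the mouse as a set of 51 genes, taken by symbol from the 34896 genes of the expression table. The set holds the actins, the complexes that nucleate, elongate, cut and bundle filaments, the small GTPases and their activators, and the proteins that link filaments to integrins and the membrane. RNA-seq was given for 3 cell types with 3 libraries each. These were granulocyte-monocyte progenitors (GMPs), sorted as lineage-negative, cKIT-positive, SCA-negative, CD16/32-positive and CD34-positive cells, then preNeu, a proliferating neutrophil precursor sorted on Mac-1, Gr-1, cKIT and CXCR4, and matNeu, mature neutrophils sorted as SiglecF-negative and CXCR2-positive. All mice were C57BL/6 adults of 6 to 12 weeks. Every library was wild type (WT) except 1 CHD4 ChIP-seq library from GMPs of Gfi1-/- mice, which lack the transcriptional repressor GFI1. CHD4 (WT and Gfi1-/- GMPs), H3K4me2 (3 WT cell types) and ATAC-seq (WT preNeu and matNeu) had 1 library per condition, so no chromatin difference has a replicate check.

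A neutrophil moves and engulfs by growing branched actin at its front. DOCK and ELMO proteins and related activators load small GTPases, which switch on the WASP and WAVE families, and these in turn start new branches at the Arp2/3 complex. Formins and Ena/VASP proteins lengthen filaments, profilin and the beta-thymosins hold monomers, cofilin and gelsolin cut, and plastin bundles. CHD4 is the ATPase of the NuRD complex, a chromatin remodeler and histone deacetylase that GFI1 can recruit. H3K4me2 marks promoters and enhancers that are active or poised.

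The sequences below were chosen because they lie under the strongest CHD4 peaks at member promoters, plus the promoter of the member that rose most (Gsn). Each is 200 bases of GRCm38 around a CHD4 summit of WT GMPs, read 5′ to 3′ on the strand of the gene. Capitals mark GGAAGT, the core bound by ETS factors, on either strand.
Hcls1, chr16:36934885-36935084, plus strand: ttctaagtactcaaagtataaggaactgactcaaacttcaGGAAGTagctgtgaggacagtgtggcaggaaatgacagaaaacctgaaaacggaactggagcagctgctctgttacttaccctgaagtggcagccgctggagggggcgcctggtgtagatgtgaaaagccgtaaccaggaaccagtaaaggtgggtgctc
Tmsb4x, chrX:167210207-167210406, minus strand: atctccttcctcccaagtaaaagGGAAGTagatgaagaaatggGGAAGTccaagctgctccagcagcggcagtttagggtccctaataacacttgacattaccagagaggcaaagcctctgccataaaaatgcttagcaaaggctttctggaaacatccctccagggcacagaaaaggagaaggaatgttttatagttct
Vcl, chr14:20928116-20928315, plus strand: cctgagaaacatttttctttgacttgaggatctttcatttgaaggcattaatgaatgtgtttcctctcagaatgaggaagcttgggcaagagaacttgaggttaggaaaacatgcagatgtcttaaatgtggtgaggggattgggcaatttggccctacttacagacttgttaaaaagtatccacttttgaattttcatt
Dock8, chr19:24999334-24999533, plus strand: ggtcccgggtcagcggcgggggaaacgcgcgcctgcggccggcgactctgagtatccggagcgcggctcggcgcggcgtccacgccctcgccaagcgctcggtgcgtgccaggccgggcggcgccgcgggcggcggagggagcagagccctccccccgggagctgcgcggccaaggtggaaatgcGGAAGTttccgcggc
Gsn, chr2:35256241-35256440, plus strand: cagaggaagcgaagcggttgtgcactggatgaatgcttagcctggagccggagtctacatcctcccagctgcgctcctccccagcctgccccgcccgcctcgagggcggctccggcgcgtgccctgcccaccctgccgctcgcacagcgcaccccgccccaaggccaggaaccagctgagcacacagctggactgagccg

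Over all 18 CHD4 summits at member promoters, GGAAGT was in 9 of the 200-base windows (50.0%), against 32.7% of 1693 windows at promoters of genes with at least 1 TPM in GMPs. This motif was chosen after the windows had been read. The GFI1 core AAATCA was in 1 of the 18 windows (5.56%, against 8.09%). The IRF core AANNGAAA was in 4 (22.2%, against 26.7%) and the SPI1 core GAGGAAGT, which overlaps GGAAGT, in 2 (11.1%, against 8.27%). A match is a stretch of letters, not a shown binding site.

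A second set of sequences holds the CArG box, the site of serum response factor, which is known for driving actin cytoskeletal genes. RefSeq promoter windows from 250 bases before to 50 after a start (GRCm38.p6) matched 43 of the 51 members by symbol. The box, searched on both strands and shown in capitals, was in the windows of 4 of these 43 (9.30%), against 1.76% of 17491 protein-coding genes. The Myl6 box belongs to a RefSeq start inside the gene. It lies downstream of the gene start used for peaks (chr10:128494145) and outside the promoter stretch used there.
Actg1, chr11:120348551-120348610, minus strand: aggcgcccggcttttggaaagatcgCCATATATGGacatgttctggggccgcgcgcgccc
Vcl, chr14:20929148-20929205, plus strand: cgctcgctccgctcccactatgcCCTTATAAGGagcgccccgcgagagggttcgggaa
Myl6, chr10:128493025-128493084, minus strand: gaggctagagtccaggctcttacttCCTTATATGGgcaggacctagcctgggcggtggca
Arpc4, chr6:113377863-113377897, plus strand: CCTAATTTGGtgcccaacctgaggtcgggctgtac
The 4 genes did not share a course in the RNA. Actg1, Myl6 and Vcl ended above their GMP level, Vcl after a peak in preNeu. Arpc4 in matNeu was not called against GMP on the TPM scale (with median-of-ratios scaling, log2 0.98, adjusted p = 1.7e-05).

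The levels are TPM, relative transcript abundances that are scaled per length and so allow genes to be compared within a library but keep no read depth. GEO's labels name the cell type in 2 places that disagree for most samples, and the titles were followed. The markers bore the titles out for the RNA libraries, and the titles of the chromatin libraries had no such check. Cd34 averaged 470 TPM in GMP libraries, 2.21 in preNeu and 1.92 in matNeu, the granule gene Ngp 71395 in preNeu, and the chemokine receptor gene Cxcr2 3468 in matNeu. The 8 GMP markers summed to 45468 to 47376 TPM in GMP, 8363 to 9412 in preNeu and 14.7 to 40.6 in matNeu. The 8 preNeu markers had 202.8 to 219.5, 149380 to 175670 and 4575 to 6857, and the 8 matNeu markers 738 to 863, 1224 to 1434 and 39414 to 43355. Of the preNeu markers, 5 rose and 2 fell from GMP to matNeu, and of the matNeu markers 5 rose and 2 fell from GMP to preNeu. Genes of other cell types moved between the same groups. Of 4 tested B cell genes, 3 rose and 1 fell from GMP to matNeu, with a median log2 change of 3.50, and the 5 on the list summed to 79.4 to 94.5 TPM in GMP, nearly all from Cd79b, 27.4 to 45.7 in preNeu and 58.1 to 132 in matNeu. Monocyte and macrophage genes (summed over 6 genes, each detected in every group) had 646 to 821 TPM in GMP, 19.3 to 37.6 in preNeu and 258 to 359 in matNeu, there mostly Csf1r. Eosinophil genes summed to 852 to 1101, 38.8 to 50.7 and 35.9 to 54.1 TPM, basophil and mast cell genes to 562 to 717, 311 to 491 and 2.54 to 15.1, and T and NK cell genes, nearly all Nkg7 in GMP and preNeu, to 458 to 610, 216 to 250.4 and 2.19 to 5.94 (5 genes each). Erythroid genes (6 genes) stayed between 5.73 and 30.8 TPM in every library. The part of these cells in the results was not tested. In every group, the lowest correlation between 2 libraries was at least 0.96.

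The machinery took a growing share of the transcriptome. The 51 members summed to 2.17 to 2.26% of all TPM in GMP libraries, 4.43 to 4.62% in preNeu and 6.62 to 7.46% in matNeu, with no overlap between groups. A large part of the sum was actin. Members summed to 21682 to 22552 TPM in GMP and 66197 to 74590 in matNeu. Within these sums Actb averaged 4642 and 23504 TPM, and Actg1 2537 and 7708. Actb alone rose from rank 9 among all genes by mean TPM in GMP to rank 3 in matNeu. The number of members among the 100 most abundant genes was 5 in GMP, 10 in preNeu and 10 in matNeu.

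**Figure D1:**
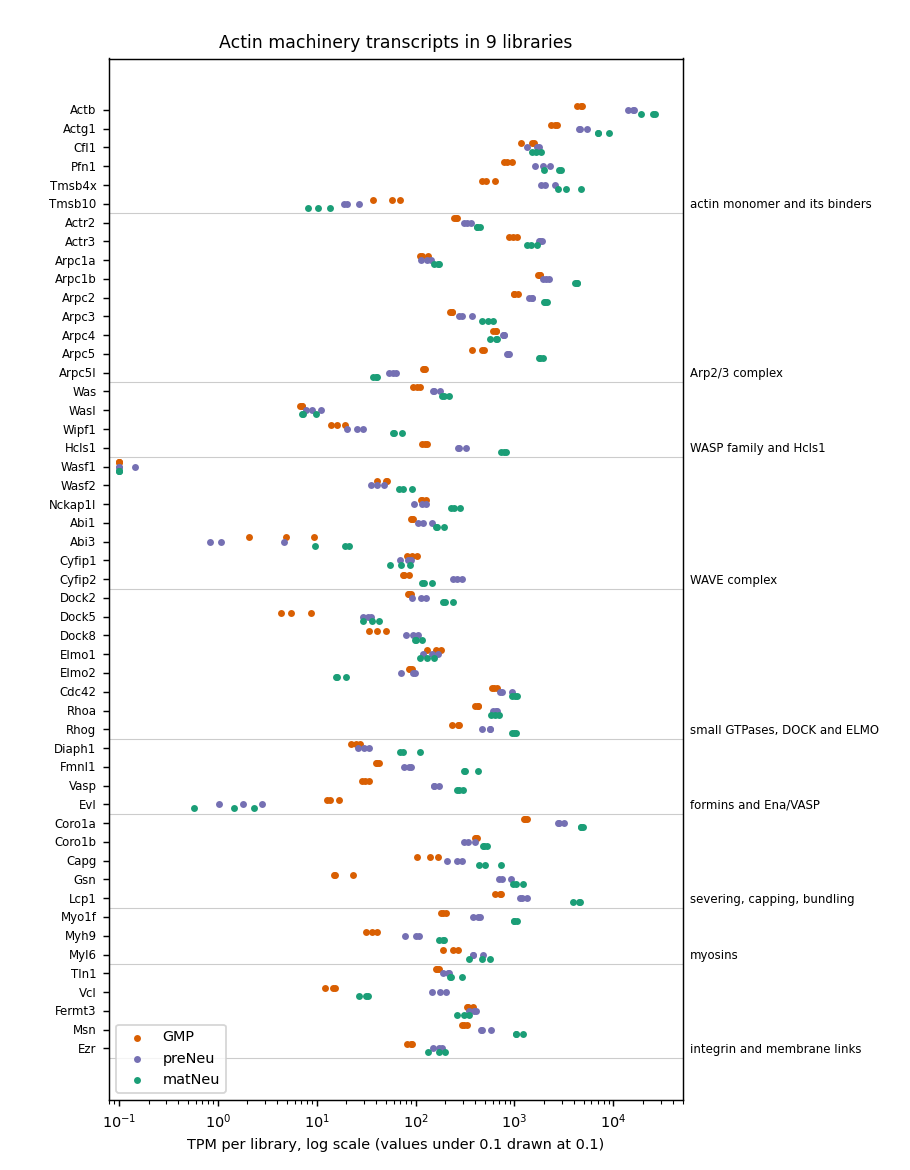
TPM of the 51 members (rows, grouped by role) in each of 9 libraries on a log axis, with 1 point per library and 1 colour per cell type. Most members shift to the right from GMP to matNeu, while Tmsb10, Arpc5l, Elmo2 and Evl shift to the left and Vcl is highest in preNeu.

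Between GMP and preNeu, 33 members rose, 3 fell and 14 were not called, of 50 tested. The test was limma on log2(TPM + 1), with an adjusted p under 0.05 over all 13061 tested genes, of which 14.7% rose and 44.3% fell. Wasf1 was left out for low values. From preNeu to matNeu 29 rose and 8 fell (all genes, 22.9% and 39.8%). From GMP to matNeu 40 rose and 4 fell (all genes, 22.8% and 54.1%). The median log2 change of members was 0.60, 0.47 and 1.06 in these 3 comparisons, against -0.52, -0.32 and -0.92 over all tested genes. The 3 comparisons share libraries and are not independent. Among 1788 genes with a mean of at least 100 TPM, 42.7% rose and 47.8% fell from GMP to matNeu, with a median of -0.18.

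These counts rest on the TPM scale, on which every library sums to the same total, so each value also depends on the other genes. With median-of-ratios scaling, 43 members rose and 2 fell from GMP to preNeu, 38 and 3 from preNeu to matNeu, and 46 and 4 from GMP to matNeu. That scaling raised the median of all genes by 0.44, 0.32 and 0.82 on the log2 scale and the rising share of all calls from 25 to 46.0%, from 36.5 to 49.7% and from 29.6 to 47.2%. Rescaling without the 10 most abundant genes of each cell type gave 40 and 3, 22 and 10, and 40 and 4, with rising shares of 37.7%, 29.7% and 30.8%. It moved the median of all genes by 0.28, -0.22 and 0.04. Of the 33 cases in which a member was not called in a comparison on the TPM scale, 25 were called with median-of-ratios scaling, all as rises, and 9 without those abundant genes, 7 as rises and 2 as falls. So a member described as not called is one without a call on the TPM scale.

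**Figure D2:**
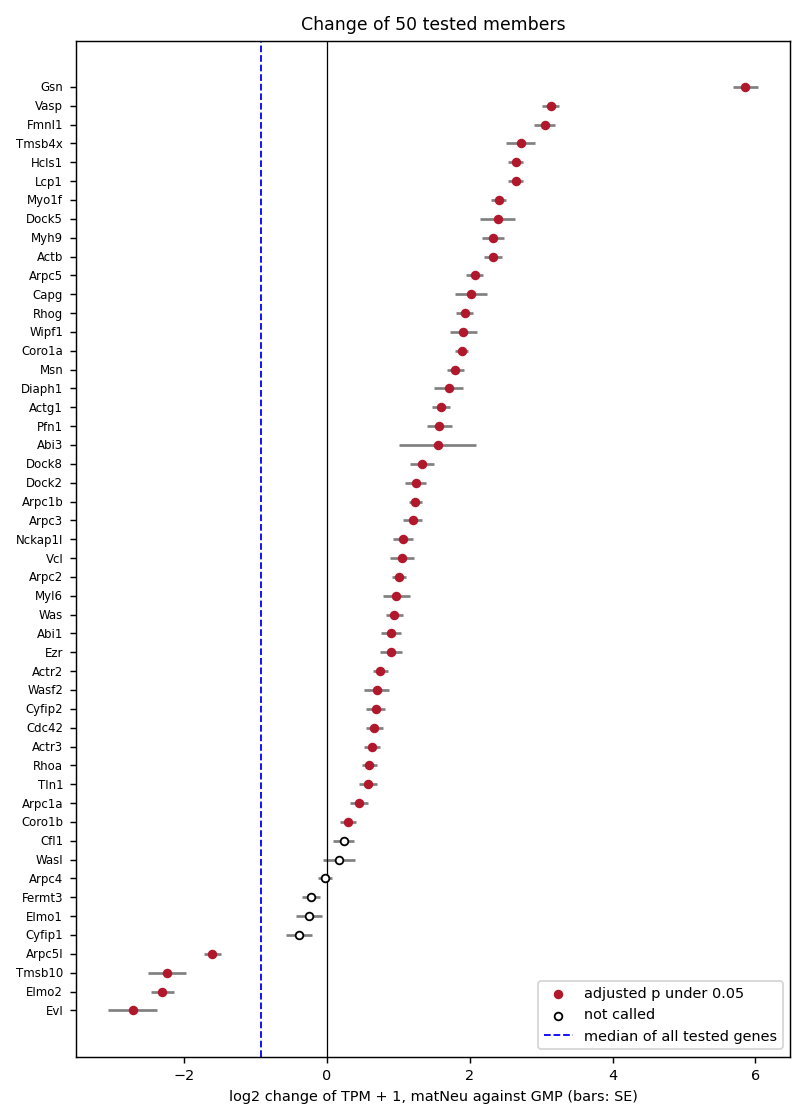
Log2 change of TPM + 1 from GMP to matNeu for the 50 tested members, as points with standard errors, filled where the adjusted p was under 0.05. Gsn stands furthest to the right at 5.86, 4 members fell, and the dashed line is the median of all tested genes at -0.92.

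Actin itself led in level. Actb, cytoplasmic beta-actin (chr5, GRCm38), had 4872, 4295 and 4758 TPM in the GMP libraries, 16019, 15863 and 14046 in preNeu and 25046, 19002 and 26465 in matNeu. The 3 groups did not overlap. From GMP to matNeu it rose 5.06-fold (log2 2.33 ± 0.13 SE, adjusted p = 4.1e-08).
Actg1, gamma-actin, had 2584, 2686 and 2340 TPM, then 4542, 4592 and 5371, then 6975, 7036 and 9114. It rose in every step, 3.04-fold in all. Reads that fit several near-identical actins can be split between them in such tables, so the ratio of these 2 genes is uncertain.

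The beta-thymosins, small peptides that hold actin monomers, moved in opposite directions. Tmsb4x had 471, 630 and 519 TPM in GMP, 2586, 2035 and 1855 in preNeu and 4743, 3341 and 2762 in matNeu (log2 2.71 ± 0.20, adjusted p = 3.3e-07, from GMP to matNeu). Tmsb10 had 37.5, 70.4 and 58.4, then 27.0, 20.4 and 19.0, then 13.7, 10.4 and 8.23 (log2 -2.24 ± 0.27, adjusted p = 1.6e-05). For neither gene did any cell type overlap another. Pfn1, the profilin that hands monomers to growing ends, rose 3.01-fold from GMP to matNeu. Cfl1, cofilin, had 1176 to 1590 TPM in GMP and 1520 to 1835 in matNeu and was not called in any of the 3 comparisons on the TPM scale. With median-of-ratios scaling it was called as a rise in each of them (log2 0.72, 0.52 and 1.24, adjusted p = 0.0072, 0.026 and 1.0e-04), and without the 10 most abundant genes in the first (0.53, adjusted p = 0.016).

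Of the 9 Arp2/3 genes, 7 rose and 1 fell from GMP to matNeu (all tested genes, 22.8% and 54.1%). Arpc5 had 487, 467 and 376 TPM in GMP, 846, 867 and 886 in preNeu and 1830, 1961 and 1772 in matNeu. Its paralog Arpc5l, the other gene for the same subunit, had 124, 118 and 121, then 63.1, 59.4 and 53.6, then 39.7, 37.6 and 40.5. Arpc5 rose 4.18-fold (log2 2.07 ± 0.11, adjusted p = 3.0e-08), and Arpc5l fell to 0.32 times its GMP level (adjusted p = 4.1e-07). The groups did not overlap for either. The promoter of Arpc5l also holds the start of Rpl35, and that of Arpc5 the start of Rgl1. Among the other members, the promoters of Arpc1a, Arpc4, Wasf1, Lcp1, Tln1 and Rhoa hold the start of another gene as well.
Arpc1b, the more abundant gene for the WD-repeat subunit, had 1817, 1729 and 1817 TPM in GMP, 2101, 2251 and 1956 in preNeu and 4089, 4327 and 4275 in matNeu. Most of its rise lay after preNeu (log2 1.01 ± 0.09, against 0.23 ± 0.09 before, a first call that was lost without any 1 of 7 libraries). The other members of the complex changed by log2 -0.02 (Arpc4) to 1.20 (Arpc3). Actr3, an actin-related core subunit, rose 1.90-fold to preNeu and then fell by 0.29 on the log2 scale (adjusted p = 0.038), a fall that median-of-ratios scaling turned to a change of 0.18 that was not called, and that lost its call without preNeu replicate 1, 2 or 3 or matNeu replicate 1 or 2 (adjusted p = 0.061 to 0.15).

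Among the activators of the complex, Hcls1 changed most. It encodes HS1, the cortactin relative of blood cells. Hcls1 had 117, 126 and 130 TPM in GMP, 270, 275 and 321 in preNeu and 738, 792 and 814 in matNeu (log2 2.64 ± 0.11, adjusted p = 3.7e-09). Was, the WASP gene, rose 1.94-fold from GMP to matNeu and Wipf1, whose product holds WASP, 3.92-fold. The ubiquitous relative Wasl had 6.87 to 7.09 TPM in GMP and 7.15 to 9.82 in matNeu and was not called, but with median-of-ratios scaling it rose (log2 1.06, adjusted p = 0.0013).
In the WAVE complex, Wasf1 was listed at 0 in 8 of 9 libraries, so Wasf2 (41.0 to 51.3 TPM in GMP, 68.1 to 92.3 in matNeu) was the gene of this pair that was present. Nckap1l, the blood cell gene for the HEM1 subunit, rose 2.11-fold from GMP to matNeu. Abi3 was low and uneven, with 2.08, 4.91 and 9.44 TPM in GMP, 0.840, 1.07 and 4.66 in preNeu and 19.2, 9.68 and 21.2 in matNeu. GMP and matNeu did not overlap, but their nearest libraries had 9.44 and 9.68 TPM.

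The share of Cyfip2 among the paired WAVE subunits was highest at the preNeu stage. Cyfip2 had 76.8, 86.4 and 74.8 TPM in GMP, 238, 260 and 298 in preNeu and 116, 121 and 148 in matNeu. Cyfip1 had 92.7, 103.1 and 82.3, then 70.4, 83.5 and 90.3, then 55.6, 71.2 and 88.2, was not called in any comparison and overlapped in every one. Scaling turned Cyfip1 both ways, to a rise from GMP to matNeu with median-of-ratios (log2 0.61, adjusted p = 0.0061) and a fall from preNeu to matNeu without the 10 most abundant genes (-0.47, adjusted p = 0.031). The share of Cyfip2 in the sum of the pair averaged 46.2% in GMP, 76.5% in preNeu and 64.5% in matNeu. Both proteins are the arms of the complex that bind Rac.

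The activators of small GTPases split. Dock5 had 8.71, 5.47 and 4.36 TPM in GMP, 29.4, 33.1 and 35.4 in preNeu and 35.9, 29.3 and 42.5 in matNeu. Its rise came before preNeu (log2 2.27 ± 0.24, adjusted p = 2.3e-05), and the step to matNeu was not called, except with median-of-ratios scaling (log2 0.58, adjusted p = 0.042). Dock2, the main Rac activator of leukocytes, had 86.1, 84.5 and 89.2, then 91.8, 113 and 129, then 189, 197 and 238. On the TPM scale its called rise came after preNeu (log2 0.91 ± 0.15, adjusted p = 2.8e-04). The step before was called as well with median-of-ratios scaling (0.87, adjusted p = 1.7e-04), without the 10 most abundant genes (0.69, adjusted p = 0.0013), with the replicate number as a block (0.34, adjusted p = 0.048) and without preNeu replicate 1 (0.47, adjusted p = 0.019). Dock8, a Cdc42 activator, rose 2.54-fold from GMP to matNeu.
The ELMO scaffolds bind DOCK proteins. Elmo2 had 93.2, 87.4 and 85.6 TPM in GMP, 70.9, 99.2 and 93.9 in preNeu and 16.1, 15.9 and 19.9 in matNeu. It overlapped between the first 2 cell types and then fell by 2.27 on the log2 scale (SE 0.16, adjusted p = 5.4e-07). Elmo1 had 181, 160 and 130, then 118, 168 and 145, then 132, 111 and 153 TPM and was called in none of the 3 comparisons, but with median-of-ratios scaling it rose from GMP to matNeu (log2 0.75, adjusted p = 0.0012).
Of the GTPases, Rhog had 276, 235 and 267 TPM in GMP, 570, 564 and 468 in preNeu and 982, 943 and 1046 in matNeu (log2 1.93 ± 0.11, adjusted p = 5.5e-08). RhoG acts upstream of ELMO. Cdc42 had 671, 628 and 596, then 755, 715 and 949, then 953, 1003 and 1051 TPM, a smaller rise (log2 0.67 ± 0.12). Rhoa rose 1.53-fold to preNeu. After that it was not called on the TPM scale, rose with median-of-ratios scaling (log2 0.45, adjusted p = 0.0022) and fell without the 10 most abundant genes (-0.29, adjusted p = 0.026), so its direction there depends on the scaling.

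Of the 4 factors that lengthen filaments, Vasp, Fmnl1 and Diaph1 rose from GMP to matNeu and Evl fell. Vasp had 30.8, 28.9 and 33.7 TPM in GMP, 155, 152 and 174 in preNeu and 274, 266 and 303 in matNeu (log2 3.13 ± 0.12, adjusted p = 2.4e-09). Its family relative Evl had 12.7, 13.8 and 16.7, then 2.82, 1.82 and 1.02, then 2.30, 0.574 and 1.45 (log2 -2.71 ± 0.34, adjusted p = 2.5e-05). Vasp stood apart between all groups, and Evl was low in both neutrophil stages, which overlapped.
The formin gene Fmnl1 had 43.1, 39.7 and 40.7 TPM in GMP, 76.7, 89.4 and 86.8 in preNeu and 310, 319 and 427 in matNeu (log2 3.05 ± 0.14, adjusted p = 1.1e-08). Diaph1, another formin gene, had 24.9, 27.2 and 22.3, then 26.3, 29.9 and 34.1, then 74.1, 69.3 and 111. On the TPM scale its called rise lay after preNeu (log2 1.44 ± 0.20, adjusted p = 8.4e-05), against a change of 0.27 before. That first step was called with median-of-ratios scaling (0.78, adjusted p = 0.0035) and without the 10 most abundant genes (0.60, adjusted p = 0.019).

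Gsn, Capg, Lcp1, Coro1a and Coro1b, grouped here as severing, capping and bundling genes, rose from GMP to matNeu. Cofilin, which also cuts filaments, was described above with the monomer binders and was not called on the TPM scale. Gsn, gelsolin, which cuts and caps filaments when calcium rises, had 15.3, 15.0 and 23.3 TPM in GMP, 699, 757 and 914 in preNeu and 1035, 978 and 1223 in matNeu. Nearly all of this change fell in the first step, a 44.1-fold rise (log2 change 5.40 ± 0.18, adjusted p = 6.8e-09), and the second step added 1.37-fold (adjusted p = 0.046). That second call was lost when scaled without the 10 most abundant genes (adjusted p = 0.37) and without preNeu replicate 1 or 2 or matNeu replicate 1 or 3 (0.071 to 0.14). Capg, which caps but does not cut, had 167, 103 and 138, then 261, 294 and 210, then 505, 730 and 438 TPM. So Capg was the higher of the pair in every GMP library and Gsn in every preNeu and matNeu library.
Lcp1, L-plastin, which bundles filaments in leukocytes, had 728, 715 and 632 TPM in GMP, 1139, 1186 and 1333 in preNeu and 3921, 4588 and 4478 in matNeu (log2 2.64 ± 0.11, adjusted p = 3.9e-09). Coro1a, coronin 1A, had 1256, 1337 and 1281, then 2736, 3142 and 2850, then 4747, 4703 and 4897. Coro1b had 406, 396 and 417, then 313, 341 and 396, then 497, 476 and 523. Coro1a rose 3.70-fold from GMP to matNeu and Coro1b 1.23-fold, a call that was lost in 6 of the alternatives tried.

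The 3 myosin genes rose from GMP to matNeu. Myo1f, a membrane-bound class I myosin of blood cells, rose 5.33-fold, the non-muscle heavy chain gene Myh9 5.12-fold and the light chain gene Myl6 1.99-fold. Among the adhesion links, Vcl, vinculin, had 15.5, 12.3 and 14.5 TPM in GMP, 147, 176 and 204 in preNeu and 32.8, 26.8 and 31.5 in matNeu. It rose 12.4-fold and then fell by 2.48 on the log2 scale (SE 0.17, adjusted p = 3.6e-07), with no overlap. In matNeu Vcl was still 2.15-fold above GMP (log2 1.06 ± 0.17, adjusted p = 1.7e-04). Platelets are also rich in vinculin. Of 5 tested platelet genes, 1 rose and 3 fell from GMP to preNeu, and the 6 on the list summed to 37.8 to 53.8 TPM in GMP, 5.96 to 10 in preNeu and 5.53 to 8.29 in matNeu. Their part in the Vcl values was not tested.
Talin (Tln1) rose 1.51-fold from GMP to matNeu. Fermt3, kindlin-3, had 332 to 383 TPM in GMP and 260 to 346 in matNeu and was not called between them, but with median-of-ratios scaling it rose (log2 0.78, adjusted p = 2.3e-04), and without matNeu replicate 2 it fell by 0.32 (adjusted p = 0.048). Of the proteins that tie actin to the membrane, Msn (moesin) rose 3.50-fold and Ezr (ezrin) 1.89-fold.

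The balance within pairs was measured as the log2 ratio of TPM + 1 in 18 pairs of paralogs or partners. In 15 pairs the ratio did not overlap between GMP and matNeu (Wasf2 over the nearly absent Wasf1 included), and in 10 it also moved by at least 1. Among all pairs of tested genes, 76.9% did not overlap and 71.1% also moved by at least 1, so the number of such pairs is not read as a result about the members. The shares below say which gene of a pair was the major one in each cell type. The permutation test over the 3 cell types was exact over all arrangements of the 9 libraries, with 0.00357 as its smallest p, and its p-values are raw over 18 pairs. All 18 pairs had a p under 0.05 in this test. It was not run on other pairs of genes, so its p-values do not set these pairs apart from any others.

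**Figure D3:**
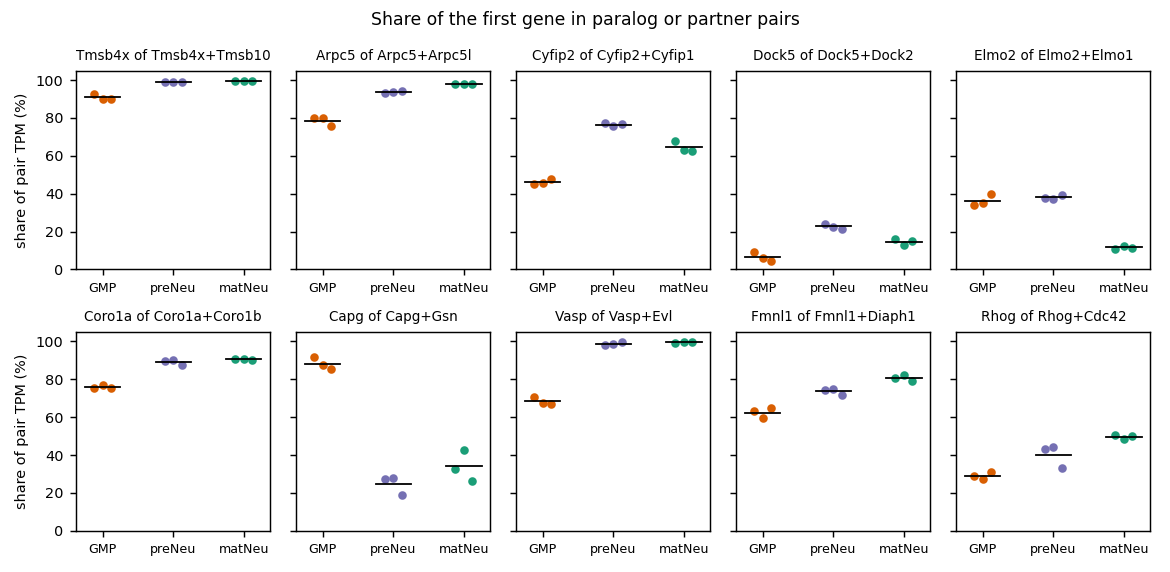
Share of the first gene in the summed TPM of each of the 10 pairs whose ratio moved by at least 1, in percent, with 1 point per library and a bar at the mean. The major gene changes between GMP and matNeu for Capg and Gsn and for Cyfip2 and Cyfip1, while Arpc5, Tmsb4x and Vasp extend a lead they already held in GMP.

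Vasp made up 68.4% of the Vasp and Evl sum in GMP, 98.8% in preNeu and 99.5% in matNeu (exact p = 0.00714). Arpc5 went from 78.4 to 93.7 and 97.9% of its pair, and Tmsb4x from 90.8 to 99.0 and 99.7% (exact p = 0.00357 for each). Capg fell from 88.2 to 24.6% and then stood at 33.97% of the Capg and Gsn sum (exact p = 0.0107). Elmo2 held 36.3, 38.0 and 11.6% of the ELMO pair (exact p = 0.0179).
Coro1a went from 76.1 to 89.3 and 90.6%, Fmnl1 of the formin pair from 62.4 to 73.7 and 80.8%, and Rhog of the sum with Cdc42 from 29.1 to 40.1 and 49.7%. Dock5 reached 22.8% of its sum with Dock2 in preNeu, from 6.64% in GMP, and stood at 14.7% in matNeu. For these 4 pairs, and for Cyfip2 and Cyfip1, the exact p was 0.00357. The Dock8 to Dock2, Rhoa to Cdc42 and Abi3 to Abi1 ratios overlapped between GMP and matNeu (exact p over the 3 cell types = 0.025, 0.0179 and 0.0464).

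Close relatives outside the 51 members were mostly low. Of 36, 24 passed the filter, 5 rose and 11 fell from GMP to matNeu. These counts are near the shares of all tested genes (22.8% and 54.1%), so they are not read as a result about the relatives. The exception in size was Acta2, smooth muscle alpha-actin, with 1.31, 0 and 0 TPM in GMP, 2.06, 1.75 and 1.70 in preNeu and 199, 198 and 169 in matNeu. Rhoc had 0.760, 0 and 0, then 0.933, 1.30 and 2.34, then 55.5, 71.9 and 51.4. Nckap1, the non-blood counterpart of Nckap1l, averaged 0.600 TPM in GMP and 0 in matNeu. Acta2 and Rhoc were named after their values were seen.

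Of 46 other actin pathway genes, all tested, 24 rose and 7 fell from GMP to preNeu (all genes, 14.7% and 44.3%). From preNeu to matNeu 24 rose and 9 fell (all genes, 22.9% and 39.8%), and from GMP to matNeu 32 and 10 (22.8% and 54.1%). The highest log2 rises from GMP to matNeu were those of Lsp1, a leukocyte filament-binding protein (6.29), the kinase gene Stk17b (5.17) and Plek, pleckstrin (4.70). Lsp1 went from 58.2 to 84.8 TPM in GMP to 5438 to 5649 in matNeu. The deepest falls were those of Limk1, a kinase that inactivates cofilin (-3.33), Coro7 (-1.36) and Actn4, an alpha-actinin (-1.36). Rac2, the Rac of blood cells, had 409 to 482 TPM in GMP, 1315 to 1478 in preNeu and 2029 to 2142 in matNeu.

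CHD4 summits in WT GMPs lay in the promoters of 14 of the 51 members (27.5%), against 11.9% of 11347 promoters of genes with at least 1 TPM in GMPs and 12.2% of those with at least 100 TPM. A promoter was the stretch from 2 kb before to 500 bp after the gene start. In the Gfi1-/- library 4 members had a summit (7.84%, against 2.13%). That list held 7316 peaks in all against 35790, and genotype and library cannot be told apart. The paper reports far fewer CHD4 peaks in WT GMPs, so the WT list used here is not the paper's set of sites. Shares of peaks that overlap a Gfi1-/- peak therefore do not describe the paper's sites.
The 14 members were Actr3, Nckap1l, Cyfip1, Cyfip2, Dock2, Dock8, Elmo1, Gsn, Lcp1, Myo1f, Vcl, Hcls1, Msn and Tmsb4x. The 4 with a Gfi1-/- summit were Hcls1, Vcl, Tmsb4x and Dock8. They were also the 4 with the highest fold enrichment over background in WT, at 29.8, 29.7, 29.5 and 19.5. In the Gfi1-/- list, the best overlapping peaks had 6.94, 5.30, 8.05 and 7.66. Fold enrichment is not comparable between lists, and within its own list the Vcl peak ranked at the 95.1st percentile in WT and the 28.2nd in Gfi1-/-. The best peaks of the other 10 had folds of 2.88 (Lcp1) to 12.7 (Cyfip2).

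**Figure D4:**
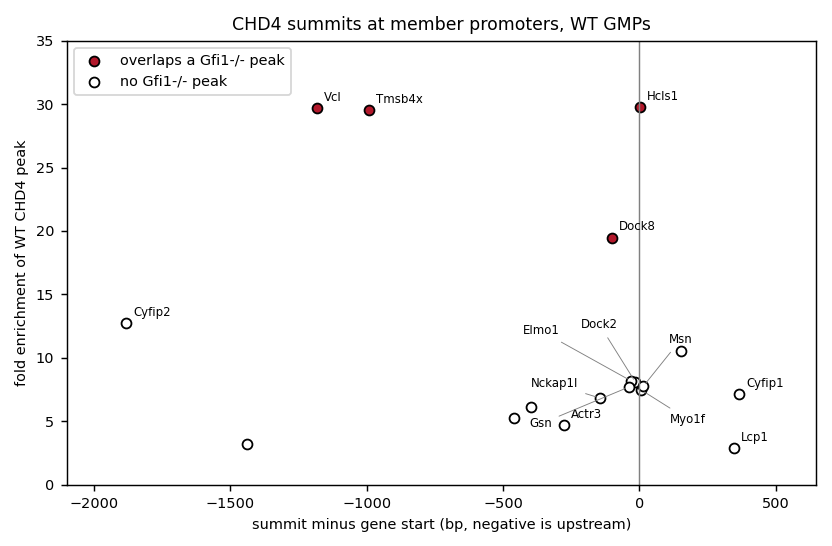
Position of each of the 18 CHD4 summits at member promoters relative to the gene start (bp) against the fold enrichment of the peak in WT GMPs. The 4 filled points, which overlap a peak of the Gfi1-/- library, lie at 19.5-fold or more, and all open points lie at 12.7-fold or less.

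The strongest of these summits lay at different distances from the gene start. With upstream positions negative, the Hcls1 summit lay at 2 bp, the Dock8 summit at -100 bp, the Tmsb4x summit at -991 bp and the Vcl summit at -1182 bp. The Gsn summit, at 7.68-fold, lay at -39 bp. Members with a promoter summit had a median log2 change from GMP to matNeu of 1.29 (14 genes), and members without one 0.96 (36 genes). Over all tested protein-coding genes the medians were -0.08 and -1.13.

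Within 10 kb of the whole gene, 34 of 51 members had a CHD4 peak (66.7%, against 42.8% of genes with at least 1 TPM in GMPs). The number of peaks was uneven, with 42 at Elmo1, 24 at Dock8 and 19 at Lcp1, and longer genes offer more room. Of 259 peaks at member loci, 53 overlapped a Gfi1-/- peak (20.5%), against 17.8% at loci of those genes and 18.5% of all peaks. Cfl1, Pfn1, Actg1, Coro1a, Vasp and Fmnl1 were among the members with none within 10 kb.

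H3K4me2 covered nearly all member promoters at every stage, 49 in GMP, 50 in preNeu and 50 in matNeu of 51, against 88.8, 91.0 and 89.8% of the promoters of expressed genes. Rhog had no peak in any list and Coro1a none in GMP at the annotated gene start, and both had one at another transcript start. Of 37643 peaks in the GMP list, 7076 had a −log10 q of at least 5. With that minimum, the count fell to 27 members in GMP (37.4% of expressed genes) and stayed at 50 in preNeu and in matNeu. The width of the peaks differed between the lists. The median width of the peak at member promoters was 3026 bp in GMP, 7139 bp in preNeu and 6496 bp in matNeu, against 2221, 3325 and 2578 bp for expressed genes. Fold enrichment did not follow width in matNeu. Ranked within its own list, the member peak had a median percentile of 83.5, 90.5 and 81.9, against 78.8, 87.5 and 86.5 for expressed genes.

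From GMP to preNeu, the peak became wider at 47 of 49 member promoters with a peak in both (95.9%, against 86.9%) and at least 2-fold wider at 25 (51%, against 24.8%). From preNeu to matNeu it became wider at 27 of 50 (54.0%, against 16.6%) and at least 2-fold wider at 2 (4.0%, against 1.10%). From GMP to matNeu it became wider at 45 of 49 (91.8%, against 63.3%) and at least 2-fold wider at 26 (53.1%, against 18.2%). For genes with at least 100 TPM in GMPs, 29.2% widened at least 2-fold to preNeu and 14.8% widened from preNeu to matNeu. With a −log10 q of at least 5 in every list, it became at least 2-fold wider at 14 of 27 member promoters from GMP to preNeu (51.9%, against 21.9%) and at 15 of 27 from GMP to matNeu (55.6%, against 16.1%). Expressed genes were those with at least 1 TPM in GMPs. Widths were not compared with those of genes that, like most members, rose in the RNA. The lists covered 49.8, 97.9 and 80.4 Mb, so width also follows how much was called in each library, and there is no replicate to set an error.

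**Figure D5:**
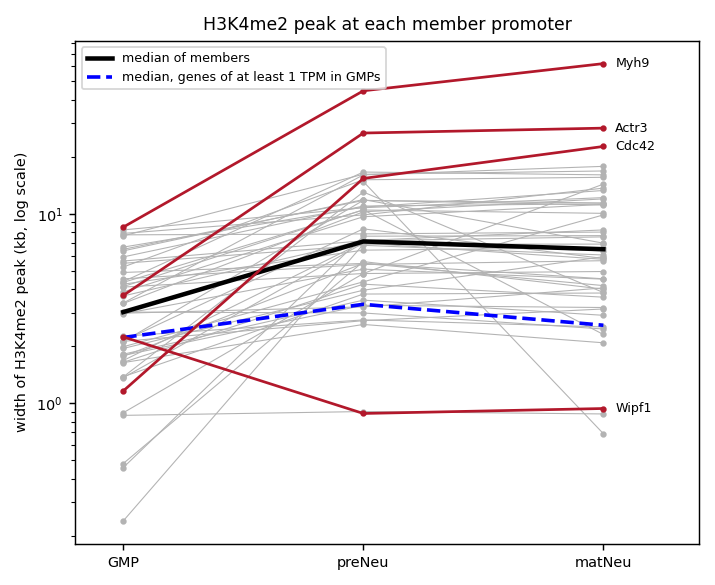
Width in kb (log scale) of the H3K4me2 peak at each member promoter in the 3 cell types, with the medians of members and of genes with at least 1 TPM in GMPs. Myh9 reaches 62029 bp in matNeu, and the median of members stays near its preNeu level while that of expressed genes falls.

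Myh9 had a peak of 8499 bp in GMP, 44564 bp in preNeu and 62029 bp in matNeu, the last at chr15:77796627-77858655. Actr3 went from 3705 to 26669 and 28311 bp, and Cdc42 from 1160 to 15358 and 22658 bp. Narrow peaks in GMP that widened included those of Msn (239, 6898 and 6912 bp) and Arpc1b (457, 7610 and 7664 bp). Width and RNA did not always move together after preNeu. Elmo2, which fell in the RNA after preNeu, had 4126, 10488 and 2305 bp. Vcl and Cyfip2, which fell as well, had 10464 and 10839 bp in preNeu and 10047 and 13264 bp in matNeu. Coro1a and Tmsb4x, which rose in the RNA, went from 14783 and 13020 bp to 690 and 3839 bp. The peak of Evl stayed narrow, at 862, 903 and 877 bp, and that of Wipf1 went from 2238 to 882 and 937 bp.

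ATAC-seq peaks marked open chromatin at 41 of 51 member promoters (80.4%), against 64.0% for genes with at least 1 TPM in GMPs and 76.4% for those with at least 100 TPM. The preNeu and matNeu lists were identical in all 16307 peaks, so no change of openness could be measured.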

How the data were processed

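RNA-seq had 3 libraries for each of 3 cell types, and ChIP-seq or ATAC-seq 1 library per condition. Samples were grouped by title. The authors deposited TPM per gene and library. The study's methods describe TopHat alignment to mm10 and HTSeq counts, while the submitters' processing notes name kallisto 0.44.0, BWA 0.7.17, MACS2 2.1.0 and mm10 without roles. Which of these made the TPM is not given in the sources used here. TPM keeps no read depth, and its columns sum to a fixed total, so abundant genes lower all others. The deposited peak lists give a fold enrichment, a linear ratio, and a −log10 q-value for each peak. Lists for GFI1 and H3K4me3 were not used, since 3105 of 26963 and 2179 of 20218 peaks lie beyond the ends of the GRCm38 chromosomes.

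The 51 members, pairs and gene lists were chosen with earlier results of these data known. The 13061 genes that reached 1 TPM in 3 or more libraries entered limma 3.58.1 (R 4.3.3) on log2(TPM + 1), in 1 fit over 9 libraries with a variance trend and Benjamini-Hochberg adjustment over all of them. A fold change on this scale understates the change of low genes, and folds in the text are ratios of mean TPM. Simulated libraries tested this fit for matNeu against GMP. Of 200 genes among 13061 simulated with a log2 change of 1, it called 58, with 2 false calls. In the data 22.8% of tested genes rose and 54.1% fell in this comparison. The adjusted cutoff is less strict where more genes change, so the share recovered does not carry over to the data. Pairs were compared with an exact, two-sided permutation test of an F statistic. Nothing in the sources says that libraries came from separate mice, so p-values measure the spread between libraries. Same-numbered libraries correlated by -0.04 to 0.12 in their deviations, over 0.1 in 1 of 9 pairs, so numbers were not treated as pairs. Gene starts are those of GENCODE M21 on GRCm38 (21951 protein-coding genes). A CHD4 peak counted by its summit and the other peaks by an overlap of at least 1 bp. Where several peaks met a promoter, the width is that of the peak with the highest fold. Values of every library are given for the 6 members that rose and the 6 that fell most from GMP to matNeu (only 4 fell), for the 5 most abundant, and for both genes of each pair that moved by at least 1. Vcl and Abi3 were added after their values were seen, as were the members whose H3K4me2 widths are given. Alternatives were the pseudocount, filters, scalings, fits, each library left out, promoter windows and peak thresholds. H3K4me2 at any transcript start and widths of stronger peaks were chosen after seeing the data.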

Additional observations from a re-analysis of the deposited data

How the results depend on the processing

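Of 117 calls over 50 members and 3 comparisons, 96 held under every alternative other than the minimum log2 change, and from GMP to matNeu 42 of 44 did (not Abi3 and Coro1b). Of the 117, 64 had a log2 change of at least 1, and 62 of these held under every other alternative. That minimum left 15 rises from GMP to preNeu and 12 rises and 3 falls from preNeu to matNeu. In the last comparison the 8 falls became 3 with median-of-ratios scaling and 5 without a variance trend.

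Median-of-ratios scaling reversed 12 changes, 9 of which it called, all as rises. From GMP to preNeu the reversed members were Nckap1l (0.44), Elmo2 (0.50) and Coro1b (0.31). From preNeu to matNeu the reversed members were Rhoa (0.45), Ezr (0.44), Actr3 (0.18), Arpc4 (0.16) and Fermt3 (0.13). The last 3 were not called with that scaling (adjusted p = 0.19, 0.23 and 0.40). From GMP to matNeu the reversed members were Arpc4 (0.98), Cyfip1 (0.61), Elmo1 (0.75) and Fermt3 (0.78).

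Leaving out each library in turn gave 27 to 34 rises and 3 to 5 falls from GMP to preNeu (5 without preNeu replicate 3), 26 to 29 and 5 to 8 from preNeu to matNeu (5 without preNeu replicate 2), and 38 to 40 and 4 to 5 from GMP to matNeu. In the last comparison Abi3 lost its call without GMP replicate 1, matNeu replicate 1 or matNeu replicate 3 (adjusted p = 0.058 to 0.082), and Coro1b without GMP replicate 1, 2 or 3 or matNeu replicate 1 or 3 (0.052 to 0.079). From GMP to preNeu, Arpc1b lost its call without GMP replicate 1, 2 or 3, preNeu replicate 1 or 2, or matNeu replicate 1 or 2 (0.058 to 0.16). With 1 library left out, the ratio of Dock8 to Dock2 changed from GMP to matNeu by -0.0407 (without GMP replicate 1) to 0.2475, and that of Rhoa to Cdc42 by -0.1093 to 0.0027 (without matNeu replicate 2).

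With the replicate number as a block, 33 members rose and 4 fell from GMP to preNeu, 30 and 7 from preNeu to matNeu, and 40 and 4 from GMP to matNeu. The block ended the calls of Arpc1b from GMP to preNeu (adjusted p = 0.0755) and Actr3 from preNeu to matNeu (0.0607), and called Abi3 (fall, 0.0425) and Dock2 (rise, 0.0483) from GMP to preNeu and Was (rise, 0.0440) from preNeu to matNeu.

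CHD4 at any transcript start was found at 21 members (17.8% of expressed genes). H3K4me2 in GMP was found at 27 members when −log10 q had to reach 5 (37.4% of expressed genes). It was at 51 members in each list at any transcript start. TPM without depth sets no counting error, and single chromatin libraries set no error at all.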
